A study of Mus musculus with 6 samples.

Results

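Interleukin 2 (Il2) and its cytokine relatives were examined in heated mouse testis as a group of 10 genes: the ligands Il2, Il15, Il21 and Il7, and the receptor chains Il2ra, Il2rb, Il2rg, Il15ra, Il21r and Il7r. All probes on the array that carry one of these gene names were taken, which gave 11 probes of 55681 (10 of 34797 gene names), with 2 for Il15ra and 1 for each other gene. The group was chosen by the measured signal of the dim Il2 probe on these arrays, which was lower in B6.MRLc1 testes. The Il2 strain difference is therefore given as a description, without a test. Whole testes were isolated 10 days after the scrotum had been held once at 43 °C for 20 min, and RNA of 3 B6.MRLc1 and 3 B6 testes was hybridised to one-colour Agilent arrays. B6.MRLc1-(D1Mit202–D1Mit403) is a congenic strain, in which the segment of chromosome 1 between 67.97 and 81.63 cM comes from MRL mice and the rest from C57BL/6. B6 is C57BL/6 itself, labelled wild type, and mice of both strains were 3 months old and male. Each strain had 3 mice per the design text, and an array was treated as a single mouse. Unheated testes were not analysed here, so whether a difference between the strains is a response to heat cannot be judged.

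Interleukin 2 is a short secreted protein that activated T cells release and that drives their division and the upkeep of regulatory T cells. Interleukins 2, 7, 15 and 21 all signal through the common gamma chain, encoded by Il2rg, which pairs with a partner chain specific to the ligand and passes the signal to the kinases JAK1 and JAK3 and on to STAT transcription factors. Interleukins 2 and 15 also share the beta chain (Il2rb) and each has a private alpha chain (Il2ra, Il15ra). The testis is an immune-privileged organ in which macrophages are the main resident leukocytes and T cells are few.

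The Il2 probe is shown because the group turns on it, and it lies on the minus strand at chr3:37020012-37020071 (build mm9, as the array annotation gives it). It is printed in the sense of the mRNA, with the stop codon of the interleukin 2 reading frame in capitals.

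Il2 probe: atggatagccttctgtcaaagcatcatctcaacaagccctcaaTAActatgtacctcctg

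The stop codon occupies bases 44 to 46 of the 60, after 14 whole codons, so the probe reads the 3′ end of the coding sequence and the first 14 bases beyond it.

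Detection came first, because several of these probes were dim. The scanner software flags a spot as well above background when its signal clears the noise of its own array. Across all spots, 58.0%, 62.2% and 64.7% were flagged on B6.MRLc1 arrays 1, 2 and 3, against 68.6%, 69.0% and 68.7% on B6 arrays 1, 2 and 3. The lowest signal flagged was 24.8, 18.7 and 14.2 intensity units on the B6.MRLc1 arrays, against 13.1, 11.9 and 11.2 units on the B6 arrays. A spot had to be brighter to be flagged on any B6.MRLc1 array than on any B6 array. Row 2 of the slide held the B6.MRLc1 arrays and row 1 the B6 arrays, so the row on the slide and the strain cannot be told apart. Of the 10 genes, 4 were well above background on all 3 B6.MRLc1 arrays and 8 on all 3 B6 arrays. The 4 genes flagged on all 6 arrays were Il2ra, Il2rg, Il15ra and Il21r, all of them receptor chains.

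**Figure D1:**
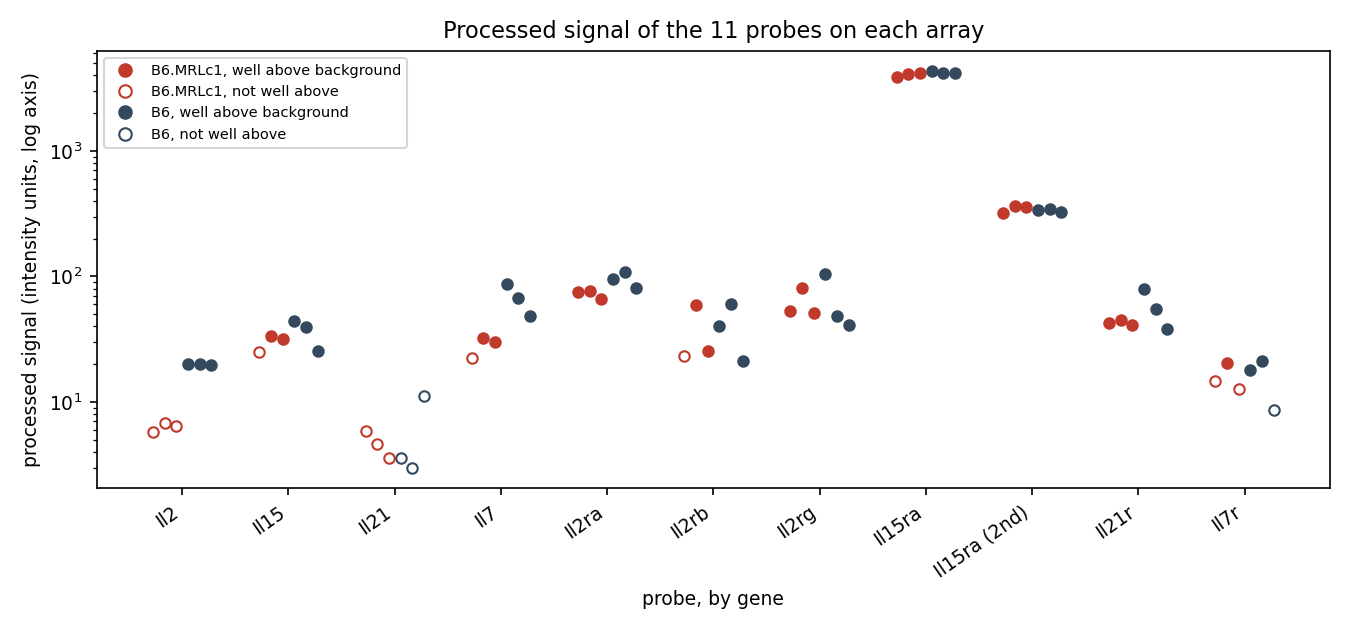
Processed signal (log axis, intensity units) of the 11 probes, with 1 point per array, B6.MRLc1 in red and B6 in dark blue. Filled points were well above background and open points were not. The Il2 probe is open on all 3 B6.MRLc1 arrays and filled on all 3 B6 arrays, and the Il21 probe is open on all 6. Brightness differs between probes for reasons other than RNA level, so only points of one probe can be compared.

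The Il2 probe was well above background on 0 of 3 B6.MRLc1 arrays and on 3 of 3 B6 arrays. Its processed signal, which is background-subtracted, was 5.72, 6.85 and 6.39 units on B6.MRLc1 arrays 1, 2 and 3, against 20.2, 20.0 and 19.6 units on B6 arrays 1, 2 and 3. All 3 B6.MRLc1 values lay below all 3 B6 values, and within each strain the values were close together. The scanner's error estimate for the spot was 5.27, 4.11 and 3.14 units on the B6.MRLc1 arrays, against 3.51, 3.25 and 3.11 units on the B6 arrays. The signal was thus 1.09, 1.67 and 2.03 times its error on the B6.MRLc1 arrays, against 5.77, 6.15 and 6.29 times on the B6 arrays. The gap was present before background subtraction, at a raw signal of 52.2 ± 1.24 units in B6.MRLc1 and 68.8 ± 1.37 units in B6 (mean ± SD, n = 3 each). The background subtracted from this spot was 46.2, 45.8 and 43.9 units on the B6.MRLc1 arrays, against 48.2, 46.3 and 46.3 units on the B6 arrays. The Il2 spot in B6.MRLc1 was therefore only a few units above its background.

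With every array scaled to its own 75th percentile of signal, Il2 stood at -6.51 ± 0.08 in B6.MRLc1 and -4.98 ± 0.08 in B6 on the log2 scale (SD, n = 3 each), a difference of -1.52 (SE 0.07). With normexp background correction, which adds an offset and draws dim values together, the difference was -0.18 (SE 0.06). With values raised to each array's lowest flagged signal it was 0.05 (SE 0.21). Every B6.MRLc1 value was then replaced by its array's limit, so this number is not a measured reversal. The B6 mean of -4.98 lay slightly under the mean limit of -4.94 that the B6.MRLc1 arrays set, so no fold is given. Of the 9 pairs of a B6 array with a B6.MRLc1 array, the B6 level exceeded the B6.MRLc1 array's limit in 5. Il2 RNA at the B6 level would not have been flagged on every B6.MRLc1 array.

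The same detection pattern, 3 of 3 B6 arrays and no B6.MRLc1 array, was shown by 680 of the 25275 genes tested, which is 2.69% of them. The opposite pattern was shown by 3 genes (0.0119%). Of the 680 genes, 400 had a B6 mean above the B6.MRLc1 limit, and Il2 was among the other 280. All 680 passed the filter on dim probes through their B6 arrays alone, and 144 of them were called in the strain test. These counts are read as a description of detection on these arrays. A further limit of whole testis is that fewer cells of a type and less RNA per cell cannot be told apart.

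**Figure D2:**
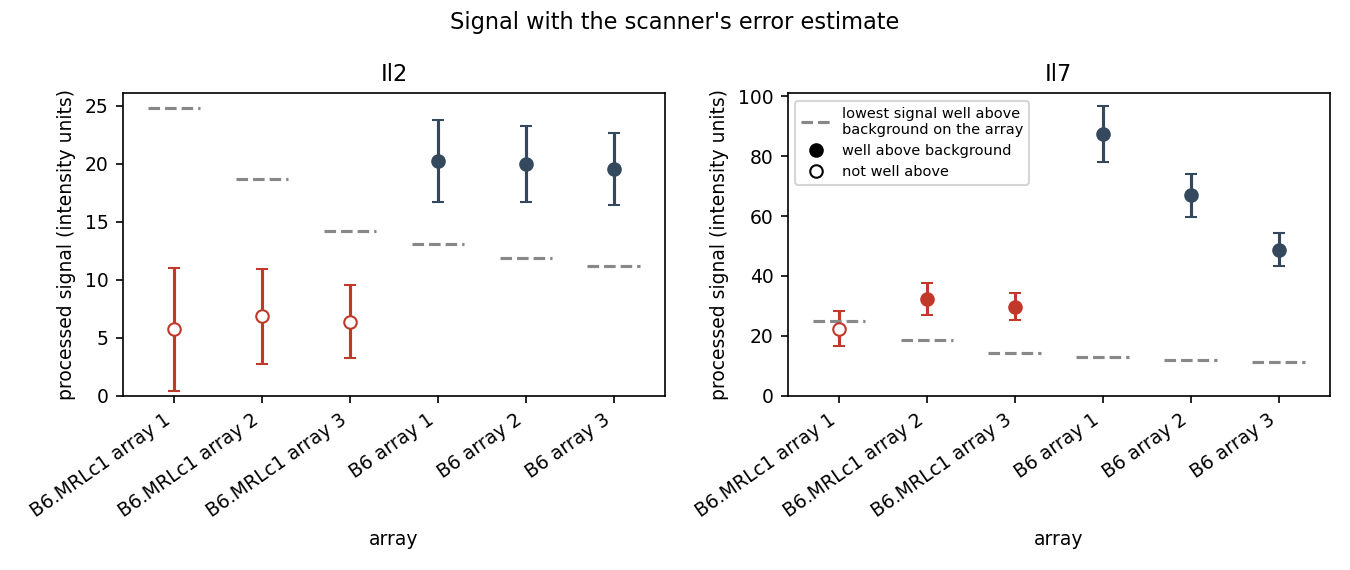
Processed signal (intensity units, axis from 0) of the Il2 and Il7 probes on each array, B6.MRLc1 in red and B6 in dark blue, with the scanner's error estimate as bars. Dashed lines mark the lowest signal well above background on that array, and open points were not well above background. For Il2 every B6.MRLc1 point lies under its dashed line, and the B6 points of 19.6 to 20.2 units lie under the line of B6.MRLc1 array 1. For Il7 the B6.MRLc1 points lie between 22.4 and 32.2 units, all under the B6 points.

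Interleukin 7, a stromal cytokine that keeps naive T cells alive and that developing lymphocytes need, had the largest difference among the 8 other genes tested. Its probe (chr3:7573207-7573266, minus strand) gave 22.4, 32.2 and 29.8 units on B6.MRLc1 arrays 1, 2 and 3, against 87.3, 66.8 and 48.8 units on B6 arrays 1, 2 and 3. Every B6.MRLc1 array was lower than every B6 array, and the B6 arrays spread widely among themselves. It was well above background on 2 of 3 B6.MRLc1 arrays and on 3 of 3 B6 arrays. The scaled log2 level was -4.37 ± 0.23 in B6.MRLc1 and -3.26 ± 0.32 in B6 (mean ± SD, n = 3 each), a difference of -1.11 (SE 0.19). This is 0.464 of the B6 level, with a 95% interval of 0.333 to 0.648. Over all genes tested the adjusted p was 0.052 (limma with Benjamini-Hochberg adjustment), just past the threshold of 0.05, so Il7 was not called. It was called with normexp, where the difference was -0.44 (SE 0.08, adjusted p = 0.0355), and with a mean-variance trend (adjusted p = 0.033). Leaving out 1 array at a time gave differences of -1.26 to -0.95 with adjusted p-values of 0.052 to 0.162.

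Interleukin 15, which is made by many non-lymphoid cells and sustains natural killer (NK) cells and memory T cells, gave 25.1, 33.7 and 31.8 units in B6.MRLc1 (chr8:84858403-84858462, minus strand). The B6 arrays gave 44.4, 39.4 and 25.3 units, so the groups overlapped, with B6 array 3 next to the lowest B6.MRLc1 array. It was well above background on 2 of 3 B6.MRLc1 arrays and on 3 of 3 B6 arrays. The scaled difference was -0.10 (SE 0.18, 95% interval -0.56 to 0.35, adjusted p = 0.784 by limma), and it was 0.11 with normexp. Interleukin 21, a product of helper T cells that acts on B cells, was well above background on no array of either strain. Its probe (chr3:37121681-37121740) was recorded at 3.56 to 5.91 units in B6.MRLc1 and 2.97 to 11.2 units in B6. On every B6.MRLc1 array and on B6 array 2 the value was a surrogate that the scanner software sets near background, not a measured signal. Il21 did not enter the test, and a low level cannot be told from none at this signal.

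Among the receptor chains, Il2ra encodes CD25, the alpha chain that raises affinity for interleukin 2 and marks regulatory and activated T cells. Its probe (chr2:11614744-11614803, plus strand) gave 75.3, 76.1 and 66.6 units in B6.MRLc1, against 95.9, 108.6 and 81.2 units in B6, and was well above background on all 6 arrays. Every B6.MRLc1 array was lower than every B6 array, by a small margin at the nearest pair. The scaled levels were -2.99 ± 0.10 in B6.MRLc1 and -2.74 ± 0.14 in B6 (mean ± SD, n = 3 each). The difference of -0.25 (SE 0.10) did not pass the test (limma adjusted p = 0.232) and was -0.04 with normexp.

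Il2rb, the beta chain that carries signal for interleukins 2 and 15, varied within both strains. It gave 23.4, 59.5 and 25.3 units in B6.MRLc1, against 40.5, 60.6 and 21.4 units in B6, and was well above background on 2 of 3 B6.MRLc1 arrays and 3 of 3 B6 arrays (chr15:78311109-78311168, minus strand). Array 2 was the highest in each strain and the groups overlapped throughout. The difference of -0.05 (SE 0.46) had a 95% interval of -1.20 to 1.09, which leaves changes of more than 1 log2 unit either way undecided (limma adjusted p = 0.959).

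Il2rg, the common gamma chain on which every receptor of the family depends, was well above background on all 6 arrays (chrX:98460130-98460189, minus strand). It gave 53.3, 81.0 and 51.6 units in B6.MRLc1, against 104.2, 48.5 and 41.2 units in B6. B6 array 1 was the highest of the 6 and the other B6 arrays the lowest, so the groups overlapped. The difference was 0.17 (SE 0.34, 95% interval -0.67 to 1.01, limma adjusted p = 0.809).

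Il15ra encodes the alpha chain that binds interleukin 15 and presents it to neighbouring cells, and was the only member with 2 probes. The brighter probe (chr2:11655416-11655475, plus strand) gave 3887, 4072 and 4205 units in B6.MRLc1, against 4360, 4180 and 4181 units in B6. After scaling the order turned, with a level of 2.82 ± 0.08 in B6.MRLc1 and 2.75 ± 0.09 in B6 (mean ± SD, n = 3 each), and the groups overlapped. The difference of 0.07 (SE 0.07) had a 95% interval of -0.11 to 0.25 (limma adjusted p = 0.615), the narrowest of the 8. The other probe (chr2:11654809-11654868), annotated to another transcript, gave 322.3, 364.5 and 356.7 units in B6.MRLc1, against 336.2, 344.5 and 323.1 units in B6. Its scaled level was higher on every B6.MRLc1 array than on any B6 array, at -0.73 ± 0.07 in B6.MRLc1 and -0.92 ± 0.07 in B6, a difference of 0.19 (SE 0.08). This probe did not stand for the gene in the test.

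The brighter Il15ra probe is shown in part because it holds a simple repeat. The 30 bases at chr2:11655440-11655469 are printed in the sense of the mRNA with the TG repeat in capitals.

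Il15ra probe, part: atatgtaTGTGTGTGTGTGTGTGtatgtaa

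The repeat is TG 8 times over, and TGTGTGTGTGTGTGTG or its complement CACACACACACACACA occurred in 105 of the 55681 probes (0.189%), and in no other member's probe.

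Il21r encodes the private chain of the interleukin 21 receptor, found on B, T and NK cells. It gave 42.4, 45.2 and 40.7 units in B6.MRLc1, against 78.8, 54.8 and 38.2 units in B6, and was well above background on all 6 arrays (chr7:132776725-132776784, plus strand). The B6.MRLc1 arrays were tightly grouped between the B6 arrays. The difference was -0.22 (SE 0.21, limma adjusted p = 0.579). Il7r encodes the alpha chain of the interleukin 7 receptor, a marker of naive and memory T cells. It gave 14.8, 20.5 and 12.8 units in B6.MRLc1, against 17.9, 21.2 and 8.61 units in B6, and was well above background on 1 of 3 B6.MRLc1 arrays and 2 of 3 B6 arrays (chr15:9435976-9436035, minus strand). The difference was 0.22 (SE 0.32, limma adjusted p = 0.732), and the groups overlapped.

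**Figure D3:**
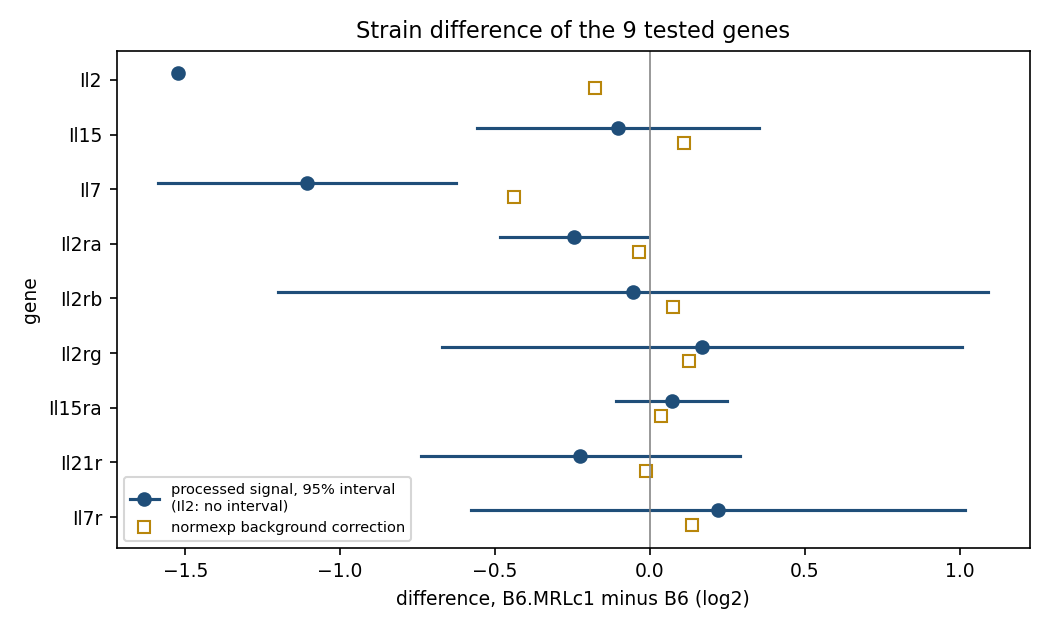
Difference of the scaled log2 level, B6.MRLc1 minus B6, for the 9 genes tested. Circles use the processed signal, with 95% intervals from the limma fit (none for Il2, which chose the group), and squares use normexp background correction. The Il7 interval lies wholly below 0, and the differences of Il2 and Il7 shrink to -0.18 and -0.44 with normexp.

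Of the 8 tested genes other than Il2, 0 were called by limma, where 2.62% of all genes tested were called, 2.21% as lower and 0.404% as higher in B6.MRLc1. These shares include 144 called genes that were flagged on every B6 array and on no B6.MRLc1 array. At an unadjusted p under 0.05 there were 2 of the 8, Il7 and Il2ra, where 20.3% of all genes tested had such a p. The strains did not overlap for the same 2 genes, both lower in B6.MRLc1, where the groups did not overlap in 28.6% of all genes. Of the 8 differences, 5 were below 0, beside 46.0% over all genes, and their median was -0.08, beside 0.02 over all genes tested. No probe of the family lies on chromosome 1, which carries the MRL segment. Their probes lie on chromosomes 2, 3, 7, 8, 15 and X.

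Array 3 was the lowest B6 array for most of the family. Among the B6 arrays, 7 of the 9 tested genes had their lowest scaled level on array 3, the exceptions being Il2 and Il15ra. The share over all genes was not computed for this count, so it is a description only. The summed level of 16 macrophage and dendritic cell markers was 120.1, 112.8 and 115.7 on B6.MRLc1 arrays 1, 2 and 3, against 140.6, 127.3 and 102.9 on B6 arrays 1, 2 and 3, in multiples of the array's 75th percentile. B6 array 3 was thus the lowest of the 6 for this sum too, but not for every marker. Csf1r was lowest on B6.MRLc1 array 2 and Itgam on B6 array 1, for example. The part of these markers' cells in the family's values was not tested. Without B6 array 3, the difference was -1.26 for Il7, -0.03 for Il2rg and -0.11 for Il7r, so the direction of Il7r rests on that array. That of Il2rg also turned without B6.MRLc1 array 2, to -0.0046.

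Over the 6 arrays, genes whose level followed Il2 closely included Ppox (Pearson r = 0.999), an enzyme of haem synthesis, and Tmsb10 (r = 0.997), which binds actin monomers. Of 15619 genes with a symbol, 334 had r above 0.95 to Il2. Any gene that is lower in B6.MRLc1, with little spread within each strain, has such an r. The list is therefore a description of 6 points in 2 groups. For the other members the closest genes were Gins1 for Il7 (r = 0.999), Cpt1a for Il21r (r = 0.998), Rtkn for Il2rg (r = 0.996), Srcin1 for Il7r (r = 0.991) and Plppr2 for Il15ra (r = 0.990). The closest genes to Il15, Il2ra and Il2rb were Psme1 (r = 0.988), Tas2r109 (r = 0.987) and Cse1l (r = 0.987). Among the members themselves, Il2 and Il7 correlated at 0.92, Il2rb and Il7r at 0.84, and Il2 with Il2rb at 0.04.

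The other ligands and receptors that use the gamma chain, or are built like those that do, were taken as a list of 9 genes (interleukins 4, 9 and 13, Tslp and their receptor chains). Of these, 5 were tested, 1 fell and 0 rose, and Il9, Il9r and Il13 were well above background on no array. Of the 5, 2 had an unadjusted limma p under 0.05. Beside this and the lists below stand 2.62% called and 20.3% with such a p over all genes tested. Il13ra2, a decoy receptor for interleukin 13, had scaled log2 levels of -3.05, -3.14 and -2.82 in B6.MRLc1, against -2.48, -2.20 and -2.32 in B6. The groups did not overlap and the difference was -0.67 (SE 0.11, limma adjusted p = 0.0494). The call was lost with normexp (-0.39, adjusted p = 0.0509) and when any 1 array was left out (adjusted p = 0.0563 to 0.152). Il13ra1, a signalling chain for the same cytokine, had a difference of -0.58 (SE 0.23, adjusted p = 0.23) and Il4ra, the alpha chain for interleukins 4 and 13, one of -0.37 (SE 0.16, adjusted p = 0.28).

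Of 30 genes that carry the signal inside the cell (JAK and STAT proteins, kinases, SOCS inhibitors and targets), all were tested, 1 fell and 0 rose, with a median difference of -0.06. An unadjusted limma p under 0.05 was found for 8 of the 30. The groups did not overlap for 5 lower and 4 higher genes, beside 13.8% and 14.8% over all genes. Syk, a tyrosine kinase of immune receptors that also associates with the beta chain, had scaled log2 levels of 1.03, 0.94 and 0.92 in B6.MRLc1, against 1.69, 1.67 and 1.39 in B6. All B6.MRLc1 values were lower, by 0.62 in the mean (SE 0.10, limma adjusted p = 0.0429). The call was lost when any 1 array other than B6 array 3 was left out (adjusted p = 0.107 to 0.143), and was kept with normexp (adjusted p = 0.0183). Pim1, a kinase induced by STAT5, had a difference of 0.38 (SE 0.08, adjusted p = 0.0775), and Socs2, a STAT5-induced inhibitor, one of -0.47 (SE 0.12, adjusted p = 0.103). Pim1 was called with a mean-variance trend (adjusted p = 0.0424), and 2 genes of the list were called there and without B6 array 3. Jak3, the kinase bound to the gamma chain, had a difference of 0.03 (SE 0.05, adjusted p = 0.793). Its probe was the brightest of the 30, at scaled log2 levels of 8.99 in B6.MRLc1 and 8.97 in B6, and the source of that signal was not tested. Of 12 tested regulators of Il2 transcription, 0 were called by limma and 2 had an unadjusted p under 0.05. Among them, Satb1, a chromatin organiser of T cells, had a difference of 0.24 (SE 0.06, adjusted p = 0.121), and Crem, which encodes a repressor of Il2 in T cells and an activator in spermatids, one of -0.33 (SE 0.10, adjusted p = 0.153).

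Markers of the cells that make or answer interleukin 2 were compared beside these values. Of 20 T cell markers, 13 were tested and 0 were called by limma, with 0 at an unadjusted p under 0.05 and a median difference of 0.10. Cd8b1, Themis, Ctla4 and Cd69 were well above background on no array. The summed level of the T cell list was 5.57, 5.37 and 4.90 on the B6.MRLc1 arrays, against 5.25, 5.25 and 4.86 on the B6 arrays, so the strains overlapped. Most of this linear sum came from Cd4 and Cd3e, the brightest of the 13, so it says little of the other markers. Cd4 stood at a mean scaled log2 level of 1.27 in B6.MRLc1 and 1.15 in B6. Cd3e, part of the T cell receptor complex, was 0.23 ± 0.09 in B6.MRLc1 and 0.12 ± 0.06 in B6 on the scaled log2 scale (SD, n = 3 each), a difference of 0.10 (SE 0.07, adjusted p = 0.464).

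Of 11 markers of NK and cytotoxic cells, 8 were tested, 0 were called by limma and 0 had an unadjusted p under 0.05. Ncr1, Klrb1c and Klrk1, which define NK cells, were well above background on no array, and the list's sum was 3.71 to 6.11 in B6.MRLc1 and 4.25 to 4.81 in B6. Most of that sum came from Klra1 and Nkg7, the brightest of the 8, so it says little of the other markers. Of 16 macrophage and dendritic cell markers, 0 were called by limma, 3 had an unadjusted p under 0.05, and the median difference was -0.17. Itgax, the integrin CD11c, had a difference of -0.83 (SE 0.18, adjusted p = 0.0847), and Cx3cr1, the fractalkine receptor, one of 0.79 (SE 0.23, adjusted p = 0.143). With a mean-variance trend 1 gene of the list was called, Itgax (adjusted p = 0.0429), and without B6 array 3 also 1, Cd14 (-1.18, adjusted p = 0.0349), a gene looked up after its value was seen. The testis label was matched by its markers, with all 10 Sertoli cell genes well above background on all 6 arrays. Among 16 spermatid genes 6 were called as lower and 0 as higher, with a median difference of -1.98. An unadjusted limma p under 0.05 was found for 15 of the 16, beside 20.3% over all genes. Likewise 15 were lower on every B6.MRLc1 array than on any B6 array, beside 13.8% over all genes. With normexp 10 were called as lower and the median was -1.11. With values raised to the floor 4 were called as lower and it was -1.85. One of the 6, Catsper1, a sperm calcium channel gene, was well above background on 0 of 3 B6.MRLc1 arrays and 3 of 3 B6 arrays. Catsper1 passed the filter through its B6 arrays alone. Its call was lost with the floor (limma adjusted p = 0.184), which replaced every B6.MRLc1 value of it by the array's limit. The part of spermatid RNA in the values of Il2 and Il7 was not tested.

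**Figure D4:**
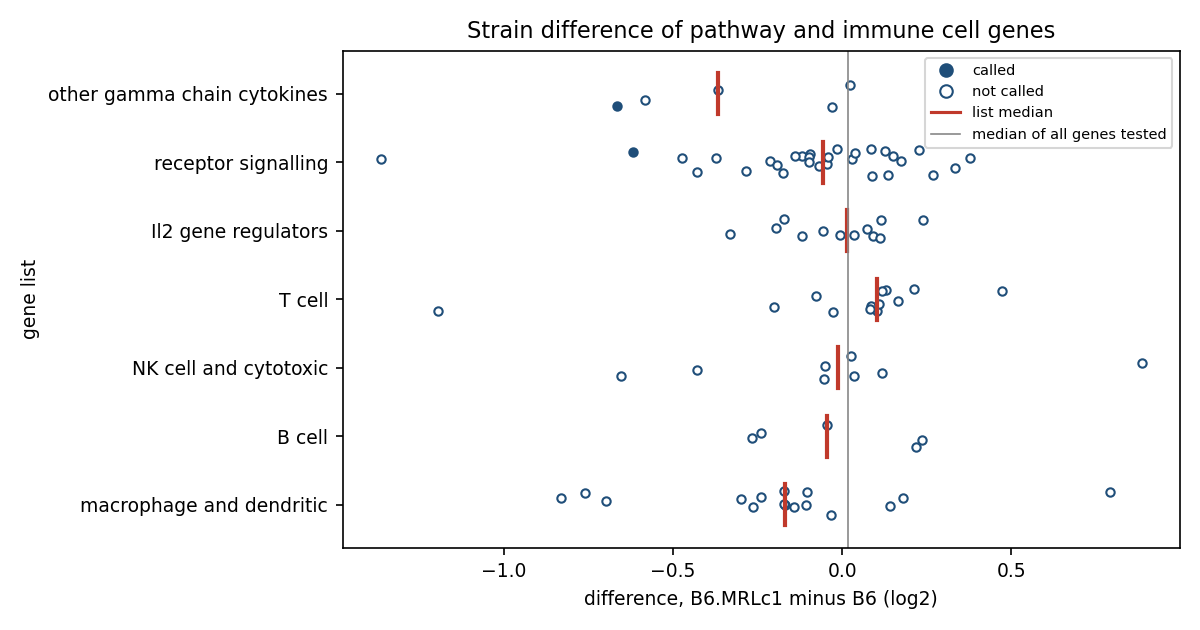
Strain difference (log2, B6.MRLc1 minus B6) of the tested genes in 7 lists, with 1 point per gene, vertical scatter for legibility only, and filled points for genes called at an adjusted p under 0.05. Red bars are list medians and the grey line is the median of all genes tested, 0.02. Only Il13ra2 and Syk are filled, and the T cell median of 0.10 lies above the grey line.

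The genes beside Il2 on chromosome 3 were examined next. Within 600 kb on each side lay 52 probes, of which 37 were well above background on at least 3 arrays. Among these, 5 were lower on every B6.MRLc1 array than on any B6 array and 2 were higher, beside 13.8% lower and 14.8% higher over all genes tested, and Il2 is 1 of the 5. The nearest, a probe of Adad1 at chr3:37010321-37010380, lies 9.69 kb from the Il2 probe on the opposite strand. Adad1, a germ cell gene for an RNA-binding protein of spermatids, had scaled log2 levels of -1.65, -1.41 and -1.28 in B6.MRLc1, against -0.68, -0.89 and -0.70 in B6. The groups did not overlap and the difference was -0.69 (SE 0.12, limma adjusted p = 0.0475). Its other probe, 53.8 kb away, differed by -0.35 (SE 0.14) and also did not overlap. The Adad1 call was kept with normexp (-0.54, adjusted p = 0.0232) and lost when any 1 array was left out (adjusted p = 0.0618 to 0.140). Whether Adad1 transcripts bear on the Il2 spot was not tested.

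**Figure D5:**
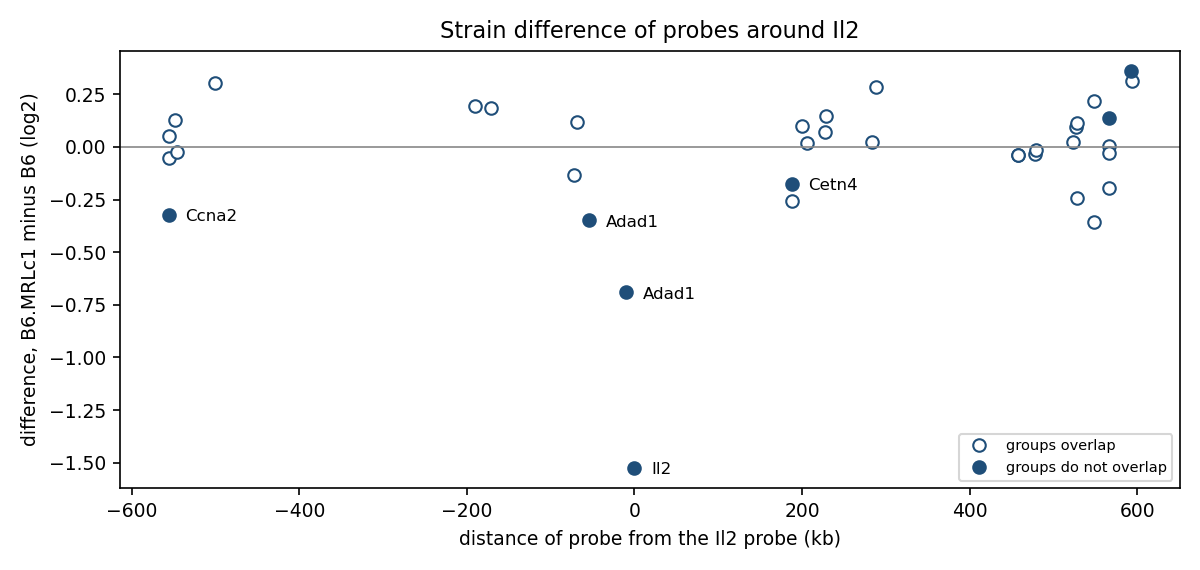
Strain difference (log2, B6.MRLc1 minus B6) of 37 probes against their distance from the Il2 probe (kb). Filled points are probes whose strains do not overlap. Both Adad1 probes lie below 0, the nearer one at -0.69. The Il2 point at -1.52 rests on B6.MRLc1 spots that were not well above background. It was -0.18 with normexp, and 0.05 with the floor, which replaced every B6.MRLc1 value of Il2 by its array's limit.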

How the data were processed

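Per the labels' protocols, the authors column-purified total RNA of whole testis, labelled it with Cy3 and hybridised it to one-colour Agilent arrays. Linear intensity values for each spot are in the scanner tables as deposited. Their processed signal was background-subtracted and spatially detrended by the scanner software, with surrogate values near background, per the file headers. The tables also hold flags, per the file headers, for spots well above background, saturated or outlying. Feature Extraction is given as version 10.7.3.1 in the headers and as 9.5.3 in the submitters' processing notes. No spot was saturated. All 6 arrays lay on 1 slide. How the authors made the log2 values of the deposited series table is not stated in the labels or headers. Over 31003 probes, at least 99.9% of them lay within 0.05 of the scaled scanner log2 signal centred on each probe's median, so scale, centring and direction matched the scanner signal, and its column medians were 0.00474, 0.00986 and 0.0161 for B6.MRLc1 arrays 1 to 3, and -0.00297, -0.00405 and 0.0144 for B6 arrays 1 to 3. This table served as an alternative.

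Here, control and outlier spots were left out, each array's processed signal was divided by its 75th percentile (556.8 to 669.8 units), log2 was taken and spots of a probe were averaged. Probes needed values on 4 or more arrays, and a share over 0.5 of their spots well above background on 3 or more of the 6, which left 36626 of 55681 probes. The probe with the highest mean stood for each of 25275 genes. The strains were tested by lmFit followed by eBayes (limma 3.58.1, under R 4.3.3), with p-values adjusted by Benjamini-Hochberg over all genes and calls at an adjusted p under 0.05. Differences are B6.MRLc1 minus B6, and intervals are 95%. The number of arrays limits the precision, and p-values measure only the spread between these testes. The fit was tested on simulated data.

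Names and mm9 positions are those of the array annotation, with accessions matched to RefSeq (GRCm38.p6) for names only. The members and gene lists were chosen with earlier results of these data known. All members are named. From each list, every called gene was eligible, at most the 4 with the smallest p, and up to 2 more where fewer than 2 were called. Some genes that the rule names are not reported here. Cd3e, Cd4, Jak3, Klra1, Nkg7, Csf1r and Itgam were named outside this rule after their values were seen. Alternatives changed the background correction, scaling, filter, floor, variance model, replicate block, outlier spots, probe per gene and the arrays used.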

Additional observations from a re-analysis of the deposited data

How the results depend on the processing

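The strain comparison of all genes gave 661 calls, 102 of them higher in B6.MRLc1 and 559 lower. The count was 50 without a filter on dim probes, 440 with the deposited series values (117 higher, 323 lower), 1202 with a mean-variance trend, and 50 to 482 when 1 array was left out. With normexp it was 890, of which 269 were higher and 621 lower. With a filter that asked for all 6 arrays well above background it was 525, of which 131 were higher and 394 lower. Of the 8 members tested besides Il2, 1 was called with normexp and with a mean-variance trend (Il7 in both), and 0 in the other settings and when 1 array was left out. Only 7 of the 8 were tested with the deposited values. With the filter on all 6 arrays only 4 were tested, and Il7 was not among them. With the replicate number as a block, 0 genes were called and Il7 had an adjusted p of 0.161. In both strains the replicate number was also the column on the slide, so this block is one of slide position too. Samples of the same number correlated at -0.04, 0.17 and 0.09 in their deviations, so the numbers were not taken as pairs. Il2 chose the group, so its direction across settings is a description only. It was lower in B6.MRLc1 in every setting that gave it a fit except with values raised to the floor (0.048), and was -1.64 with quantile normalization. The floor replaced every B6.MRLc1 value of Il2 by its array's limit. Il2 had no fit with the deposited series values or with the filter on all 6 arrays. Dropping the filter, or changing the variance model, replicate block, outlier spots or probe per gene, left its difference at -1.52. Il15 turned to 0.11 with normexp and to 3.96e-05 with the deposited values, Il2rb to 0.073 and 0.16. Leaving out 1 array gave -0.29 to 0.019 for Il15, -0.45 to 0.28 for Il2rb, -0.034 to 0.53 for Il2rg, -0.11 to 0.46 for Il7r and -0.24 to 1.49 for Eomes, while Il15ra and Il21r kept their direction. The direction of Il2, Il7 and Il2ra could not turn in this way, because their groups did not overlap. The cause was not tested in any of these. The calls of Il13ra2 and Adad1 were also lost with quantile normalization (adjusted p = 0.0578 and 0.0542) and with values raised to the floor (0.0539 and 0.0526), that of Adad1 with the deposited values (0.0508), and those of Il13ra2, Syk and Adad1 without the filter (0.0934, 0.0859 and 0.0906). Signal over background limits Il2, Il21 and Il7r most, whose spots were not flagged on 3 or more arrays.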

Other observations

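Among 12 effector cytokines of T cells, 3 passed the filter on dim probes and 0 were called by limma, with 0 at an unadjusted p under 0.05. Il22, an interleukin 10 relative that acts on epithelia, shared the detection pattern of Il2, well above background on 0 of 3 B6.MRLc1 arrays and on 3 of 3 B6 arrays. Its scaled log2 levels were -5.20, -5.49 and -7.16 in B6.MRLc1, against -5.00, -5.22 and -4.78 in B6, so the groups overlapped. It passed the filter through its B6 arrays alone. The direction of its difference turned with normexp, at -0.95 with the processed signal and 0.05 with normexp. It was 0.06 with the floor, which replaced every B6.MRLc1 value of Il22 by its array's limit. Lta, lymphotoxin alpha, was well above background on all 6 arrays, with a difference of 0.15 (SE 0.12, adjusted p = 0.509). Il10, Il17a, Csf2, Tnfsf8, Cd40lg and Fasl were well above background on no array.

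Of 7 B cell markers, 5 were tested, 0 were called by limma and 0 had an unadjusted p under 0.05, and Ms4a1 and Pax5 were well above background on no array. Cd6, a T cell adhesion receptor, had one of -1.20 (SE 0.69, adjusted p = 0.389), with B6.MRLc1 array 3 at -4.30 and the other 5 arrays between -2.24 and -1.19. Tbx21, the transcription factor T-bet of NK and type 1 helper T cells, was well above background on 1 of 3 B6.MRLc1 arrays and 3 of 3 B6 arrays, with a difference of -0.65 (SE 0.33, adjusted p = 0.335) that was -0.07 with normexp. Eomes, a transcription factor of NK and cytotoxic T cells, had one of 0.89 (SE 0.95, adjusted p = 0.632), with B6.MRLc1 array 1 at -1.19 and the other arrays between -4.66 and -4.16.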
